A study of Homo sapiens and Mus musculus with 81 samples.

Results

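The urea cycle and hepatic amino acid enzymes are 10 genes chosen by symbol: CPS1, NAGS, OTC, ASS1, ASL and ARG1 of ammonia disposal, GLUL and GLS2 of glutamine turnover, and HAL and SDS of amino acid breakdown. Each gene was read from its brightest probe set. On the human array 9 of the 10 were named and on the mouse array 8 of the 10, among 18721 human and 21931 mouse genes. Human ASL and mouse Ass1 and Gls2 were not analysed here. GLS2 was named from the RefSeq accession in its probe set's identifier.

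The series comprised 81 one-colour arrays. HUH7 (32 arrays) and PLC/PRF/5 (24 arrays) are human liver cancer lines, and each received 10 nM of a single siRNA or a mock transfection. The siRNAs were those named for human APOB (APOB-Hs1 to APOB-Hs4), those named for the mouse gene (Apob-Mm1 and Apob-Mm2), and one against RAD18. HUH7 was collected at 6, 12, 24 and 48 h and PLC/PRF/5 at 6, 12 and 48 h. Hepa1-6, a mouse hepatoma line, had 16 arrays with APOB-Hs1, APOB-Hs3, APOB-Hs4 or mock at 6, 12, 24 and 48 h. Mouse liver had 9 arrays, with 3 livers for each of APOB-Hs1, APOB-Hs3 and APOB-Hs4, taken 3 d after 3 mg/kg siRNA in a lipid nanoparticle; the labels name neither strain nor age, and no untreated liver was analysed here. All cells of a line, mock included, met the transfection reagent Lipofectamine RNAiMAX. APOB encodes the main protein of very low density lipoprotein, and RAD18 a ubiquitin ligase of DNA damage tolerance. Each cell line had 1 array per treatment and time, so treatments stood in for replicates of a time and times for replicates of a treatment. Nothing in the labels says whether these came from separate cultures, so p-values measure the spread between these arrays only.

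As background, the urea cycle turns ammonia, which is toxic, into urea, and the whole cycle runs in hepatocytes around the portal vein. CPS1 fixes ammonia in the mitochondrion once it is activated by N-acetylglutamate, the product of NAGS, and OTC, ASS1, ASL and ARG1 carry the nitrogen to urea in turn. GLUL captures the ammonia left over as glutamine in hepatocytes around the central vein, and GLS2, the liver type of glutaminase, releases it again. HAL, histidase, starts histidine breakdown, and SDS, serine dehydratase, turns serine into pyruvate and ammonia.

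The promoter letters of HAL, ARG1 and SDS are shown because these genes changed most over time in the human lines. They are RefSeq sequences on GRCh38.p14, from 250 bases before to 50 after the gene start, written 5′ to 3′ on the gene's strand. Capitals mark matches, on either strand, to TATAAA (core promoter box), TGACG (core of the cAMP response element), TTGCNNAA (C/EBP core) or CAAAGNNCA (HNF4A core), where N is any base.

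HAL, chr12:95996295-95996594, minus strand: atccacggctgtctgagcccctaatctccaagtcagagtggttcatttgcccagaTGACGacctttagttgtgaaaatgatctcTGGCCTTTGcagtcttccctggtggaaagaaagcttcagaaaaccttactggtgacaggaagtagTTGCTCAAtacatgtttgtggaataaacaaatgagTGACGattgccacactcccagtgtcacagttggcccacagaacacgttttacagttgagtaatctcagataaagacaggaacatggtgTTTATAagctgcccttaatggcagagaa
ARG1, chr6:131572976-131573275, plus strand: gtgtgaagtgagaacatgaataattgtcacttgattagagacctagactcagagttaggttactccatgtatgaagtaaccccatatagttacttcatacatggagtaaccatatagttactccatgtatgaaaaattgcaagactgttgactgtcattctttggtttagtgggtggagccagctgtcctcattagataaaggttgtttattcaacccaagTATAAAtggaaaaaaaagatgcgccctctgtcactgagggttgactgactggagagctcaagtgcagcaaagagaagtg
SDS, chr12:113403838-113404137, minus strand: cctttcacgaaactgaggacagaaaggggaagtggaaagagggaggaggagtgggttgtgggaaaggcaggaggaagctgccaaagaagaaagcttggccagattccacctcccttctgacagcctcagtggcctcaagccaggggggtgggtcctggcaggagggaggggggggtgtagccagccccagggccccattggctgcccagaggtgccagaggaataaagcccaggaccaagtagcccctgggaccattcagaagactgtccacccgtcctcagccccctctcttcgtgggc

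The HAL window held 1 TATAAA match, 2 TGACG matches, 1 TTGCNNAA match and 1 CAAAGNNCA match, none overlapping another. ARG1 held 1 TATAAA match, and SDS held none of the motifs. Among 35116 human promoters of this length, 11.5% held TATAAA, 24.6% TGACG, 10.5% TTGCNNAA and 5.28% CAAAGNNCA. These matches describe letters, not bound sites.

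The level of each siRNA's target was set beside the labels. In HUH7, APOB fell by 1.69 to 2.51 on the log2 scale with the 4 siRNAs named for human APOB, and RAD18 fell by 1.98 with its own siRNA. In PLC/PRF/5 these ranges were -3.27 to -2.54 for APOB and -3.25 for RAD18, and in Hepa1-6 Apob fell by 2.32 to 2.64. With Apob-Mm1 and Apob-Mm2 APOB differed from mock by -1.27 and -0.81 in HUH7. The same differences in PLC/PRF/5 were -2.44 and -1.82, and all 4 missed the adjusted threshold (limma adjusted p from 0.100 to 0.201). In liver the Apob difference of APOB-Hs4 from the other groups was -0.57, which missed the threshold (limma adjusted p = 0.0990). Every liver group received an APOB siRNA, so Apob cannot check the labels there. Of the hepatocyte markers, ALB averaged 13.79 (log2 intensity) in HUH7 and 7.43 in PLC/PRF/5, and TTR 12.50 and 7.45. AHSG averaged 12.25 and 6.38 in the same order, and APOA1 12.09 and 10.31. APOA2, FGB, SERPINA1 and TF averaged 12.61 to 13.64 in either line. In Hepa1-6 Alb averaged 12.10 against 14.76 in liver, and the other 5 markers measured were lower still in the line, with Ttr at 3.09, Ahsg at 3.81, Apoa1 at 4.44, Apoa2 at 6.35 and Fgb at 8.31. Ttr and Ahsg lay below the mouse array median of 4.41. The wider residual spreads were on the PLC/PRF/5 arrays with APOB-Hs2 (SD 0.199 log2 units) and APOB-Hs4 (0.185) at 48 h and the HUH7 array with APOB-Hs1 at 12 h (0.167).

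The first comparison asked which enzymes of the pathway each human line expressed. HUH7 had far less CPS1, ASS1 and OTC than PLC/PRF/5, and more HAL, ARG1, GLUL and NAGS. Levels are compared only for the same probe set between systems, never between genes.

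CPS1, the entry enzyme of the cycle, had 6.67, 6.40 and 6.62 (log2 intensity) in HUH7 mock cells at 6, 12 and 48 h, against 12.71, 12.62 and 12.95 in PLC/PRF/5 mock cells. Over all treatments the HUH7 arrays ran from 5.94 to 7.39 and those of PLC/PRF/5 from 11.66 to 12.95, with a gap of more than 4 units between the lines. The fitted difference, HUH7 minus PLC/PRF/5 over the mock arrays, was -6.20 ± 0.09 (SE, n = 3 arrays per line), or 73.6-fold lower in HUH7 (limma adjusted p = 2.72e-09). The 2 other CPS1 probe sets averaged 5.99 and 6.02 in HUH7, against 12.79 and 12.39 in PLC/PRF/5.

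ASS1, which joins citrulline to aspartate, had 9.14, 9.09 and 8.89 in HUH7 mock cells, against 12.52, 12.53 and 12.52 in PLC/PRF/5 mock cells. The lines did not overlap on any array, and the difference was -3.48 ± 0.09 (SE, limma adjusted p = 2.74e-08), or 11.2-fold lower in HUH7. A dimmer ASS1 probe set averaged 4.30 in HUH7 and 4.22 in PLC/PRF/5, so the probe sets of this gene disagreed.

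OTC, the mitochondrial step that makes citrulline, had 2.97, 3.28 and 3.15 in HUH7 mock cells, against 5.11, 5.29 and 5.43 in PLC/PRF/5 mock cells. The difference was -2.14 ± 0.09 (SE, limma adjusted p = 3.98e-07). The HUH7 values lay near 2.93, the 10th percentile of all human probe intensities, and the PLC/PRF/5 values near the median of 5.06.

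HAL, which opens histidine breakdown, had 8.60, 8.04 and 9.03 in HUH7 mock cells, against 4.21, 4.35 and 5.90 in PLC/PRF/5 mock cells. It was 13.3-fold higher in HUH7 (log2 difference 3.74 ± 0.20, SE, limma adjusted p = 1.80e-06). The mock arrays stood apart, although 1 treated PLC/PRF/5 array described later reached the HUH7 range. A dimmer HAL probe set averaged 4.14 in HUH7 and 4.49 in PLC/PRF/5 and showed no such difference. The PLC/PRF/5 mock values of the brighter probe set at 6 and 12 h lay below 5.06, the human array median.

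ARG1, the last step of the cycle, had 5.72, 4.95 and 5.94 in HUH7 mock cells, against 3.30, 3.12 and 3.38 in PLC/PRF/5 mock cells. Its difference was 2.27 ± 0.14 (SE, limma adjusted p = 3.64e-06), and no array of the lines overlapped. GLUL differed by 0.87 ± 0.08 and NAGS by 0.58 ± 0.10 (SE, limma adjusted p = 5.17e-05 and 0.00133), both higher in HUH7. GLUL ranges did not overlap over the 56 arrays, and NAGS ranges did.

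GLS2 was higher in HUH7 by 0.31 ± 0.10 (SE, limma adjusted p = 0.0337), a call lost without the 12 h arrays (adjusted p = 0.186). It was dim in both lines, with averages over all arrays of 4.31 in HUH7 and 4.18 in PLC/PRF/5. SDS had 6.16, 6.03 and 6.15 in HUH7 mock cells, against 6.20, 6.30 and 7.14 in PLC/PRF/5 mock cells, and its difference of -0.43 ± 0.17 missed the threshold (SE, limma adjusted p = 0.0542). It passed over all 8 treatments (-0.29, adjusted p = 0.000185), with an intensity trend in the prior variance (adjusted p = 0.0223) and without the 6 h arrays (-0.63, adjusted p = 0.0197). In all 8 of 9 members were called, 3 lower and 5 higher in HUH7, where 59.5% of all genes were called (32.6% lower and 26.9% higher). With so many genes differing, that count is not particular to these enzymes.

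**Figure D1:**
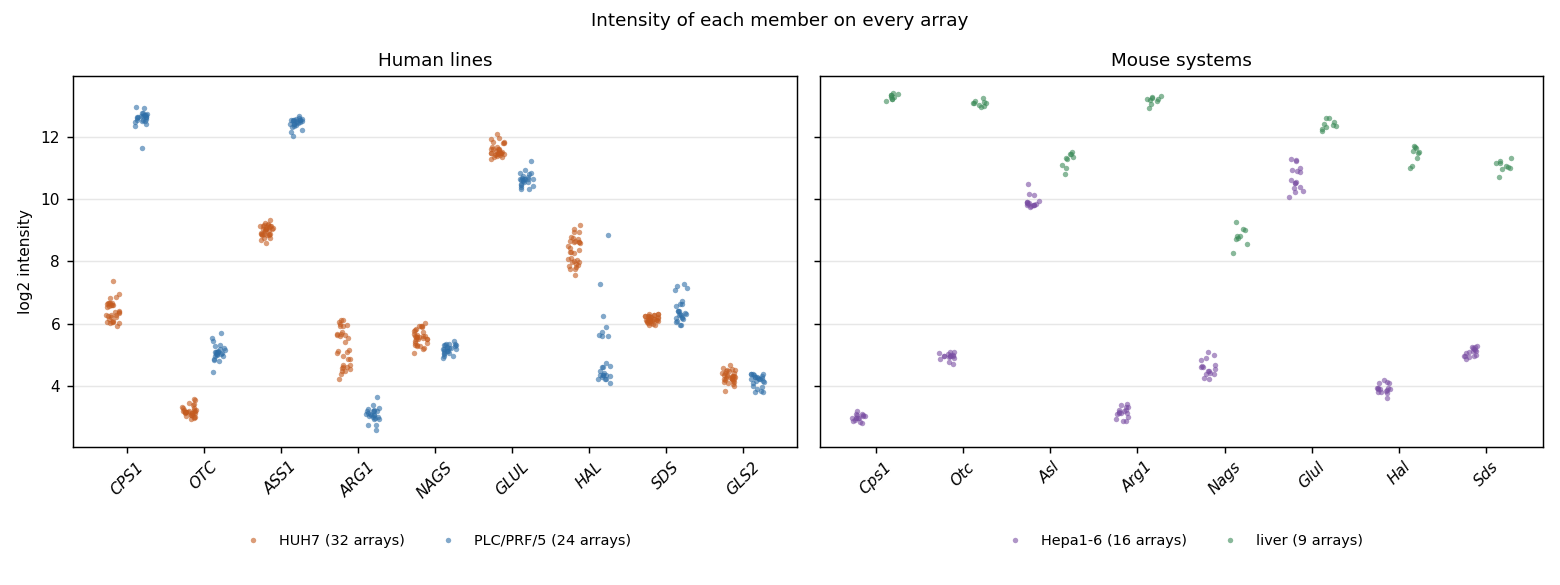
Log2 intensity of each member (horizontal axis) on every array, with HUH7 left of PLC/PRF/5 and Hepa1-6 left of liver; each point is 1 array, and points are spread sideways at random. CPS1 and ASS1 lie lower and HAL and ARG1 mostly higher in HUH7, with 1 PLC/PRF/5 HAL array at 8.84, and all 8 mouse members lie lower in Hepa1-6.

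Wider lists around the pathway also split between the lines, where 32.6% of all genes were lower and 26.9% higher in HUH7. Of 7 urea cycle partners, 2 were lower and 2 higher in HUH7, among them the cationic amino acid transporter SLC7A2 (2.27) and the ornithine carrier SLC25A15 (-1.52). Of 13 histidine, serine and glycine enzymes, 4 were lower and 8 higher, led by AMT of the glycine cleavage system (3.62) and SDSL, a relative of SDS (-1.92). Of 21 other catabolic enzymes, 7 were lower and 9 higher, with KYNU of tryptophan breakdown (-4.96), MAT1A, which makes S-adenosylmethionine (-2.40), and TDO2, which opens the tryptophan ring (2.14). Of 14 glutamine and glutamate genes, 4 were lower and 6 higher, including the ammonia transporter RHBG (2.25) and OAT, ornithine aminotransferase (-1.38).

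Of 12 regulators, 5 were lower and 6 higher in HUH7, where 32.6% of all genes were lower and 26.9% higher. CEBPA, a factor of the hepatocyte programme, was higher in HUH7 (2.51), and PPARGC1A, a coactivator of fasting genes, was lower (-1.72). NR3C1, the glucocorticoid receptor, was also lower (-0.85). List medians ran from -0.12 to 0.56, and each of these lists was described, not tested as a set. RHBG stands in both the glutamine and the pericentral list, where 5 of 13 were lower and 4 higher, including LEF1 (-2.81) and SP5 (2.33), targets or partners of WNT signalling.

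The second comparison set the Hepa1-6 line against liver, over the siRNA-treated arrays. Hepa1-6 ranges, medians and averages take all 16 arrays, mock included, while fitted differences take the 12 siRNA-treated arrays. This fit held no term for time, so the times of Hepa1-6 counted as replicates. Every measured member was lower in the line, and most were lower by a very large factor. Liver also holds other cell types, and with bulk RNA fewer cells of a type and less RNA per cell cannot be told apart. Markers of other cell types differed alongside, with 4 of 4 endothelial, 3 of 4 Kupffer cell, 3 of 4 stellate cell, 3 of 4 lymphocyte, 2 of 2 red cell and 1 of 3 cholangiocyte markers lower in Hepa1-6. The others were higher there, among them the stellate marker Dcn (13.90 in Hepa1-6 and 12.22 in liver) and the cholangiocyte markers Sox9 (8.71 and 4.97) and Krt7 (5.09 and 3.49). Hbb-b1 of red cells averaged 2.69 in Hepa1-6 and 13.05 in liver, Clec4g of endothelium 4.09 and 9.94, and Vsig4 of Kupffer cells 3.36 and 8.19. Their part in the differences was not tested. Over all genes 26.9% were called lower in Hepa1-6 and 56.5% higher.

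Cps1 ran from 2.82 through a median of 2.98 to 3.21 (log2 intensity) in Hepa1-6, against 13.16, 13.28 and 13.40 in liver. Arg1 ran from 2.87 through 3.16 to 3.44 in Hepa1-6, against 12.92, 13.21 and 13.31 in liver. Their differences were -10.29 ± 0.05 and -10.01 ± 0.06 (SE, limma adjusted p = 7.52e-36 and 9.60e-34). The Hepa1-6 signals lay close to 2.71, the 10th percentile of mouse probe intensities, and no detection calls were used, so the true ratios are not bounded from above.

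Otc had a median of 4.96 in Hepa1-6, against 13.08 in liver, and Hal 3.91 against 11.51. Sds had 5.11 in Hepa1-6 against 11.07 in liver, and Nags 4.59 against 8.82. The differences were -8.11 ± 0.05 for Otc, -7.53 ± 0.08 for Hal, -5.98 ± 0.07 for Sds and -4.25 ± 0.10 for Nags (SE, n = 12 Hepa1-6 and 9 liver arrays). Of these 4, Hal in Hepa1-6 lay below 4.41, the median of mouse probe intensities, and the others just above it.

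Glul and Asl stayed bright in the line. Glul had a median of 10.58 in Hepa1-6, against 12.37 in liver, and Asl 9.86 against 11.32. Their differences were -1.72 ± 0.12 and -1.33 ± 0.08 (SE, limma adjusted p = 9.34e-13 and 6.68e-14), which is 3.30-fold and 2.51-fold lower in Hepa1-6. Across the members, 8 of 8 were called lower, where 83.5% of all genes were called and 26.9% were called lower. Ranges of the line and liver overlapped for no member, and neither did those of Apob and Rad18. The share of all genes without such overlap was not counted.

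The neighbouring lists followed both directions, where 26.9% of all genes were called lower in Hepa1-6 and 56.5% higher. All 21 other catabolic enzymes measured were lower in Hepa1-6, including Tdo2 (-10.54), Cdo1 of cysteine oxidation (-10.45), Hpd of tyrosine breakdown (-10.33) and Bhmt of homocysteine methylation (-10.09). Of 13 histidine, serine and glycine enzymes 8 were lower, led by Agxt (-8.04) and Ftcd (-6.90), and 5 were higher, led by the serine synthesis enzymes Psat1 (6.98) and Phgdh (3.90). Of 13 glutamine and glutamate genes 8 were lower, with the glutamine transporter Slc38a3 at -9.25, and 5 higher, with asparagine synthetase Asns at 6.12 and Aldh18a1 of proline synthesis at 4.49. Of 11 regulators 7 were lower, with Klf15, an activator of amino acid breakdown, at -6.51, Cebpa at -3.56 and Hnf4a at -2.37, and 3 were higher, with Atf4 at 1.71.

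The third question was how the enzymes moved with time in culture. Time after transfection ran together with cell density, medium and plate in each line, and these cannot be told apart. In HUH7, ARG1, HAL and CPS1 fell at 12 h against 6 h and rose at 48 h against 12 h over the 8 treatments together, and mock cells moved the same way. Single arrays departed from this course. CPS1 with RAD18 siRNA had 6.36 at 6 h and 6.37 at 12 h, and HAL with APOB-Hs3 was at its lowest at 48 h. ARG1 with APOB-Hs4 kept the course, but its 5.17 at 48 h stayed below its 5.95 at 6 h. At 48 h against 6 h 5 of 8 hepatocyte markers fell in HUH7 (12.7% of all genes fell and 16.6% rose) and 5 of 8 in PLC/PRF/5 (6.66% and 12%), and 2 of 6 rose in Hepa1-6 (8.45% fell and 8.71% rose). The remaining markers did not pass the test, and the part of these markers in the changes was not tested.

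ARG1 over the 8 HUH7 treatments averaged 5.74, 4.70, 4.70 and 5.78 (log2 intensity) at 6, 12, 24 and 48 h. Mock cells alone had 5.72, 4.95, 5.13 and 5.94, so the trough was in the mock arm too. It fell by 1.04 ± 0.11 at 12 h against 6 h, in 8 of 8 treatments (SE, limma adjusted p = 1.22e-07), and rose by 1.08 ± 0.11 at 48 h against 12 h, again in 8 of 8 (adjusted p = 1.88e-08). These are 2.05-fold and 2.11-fold changes.

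HAL averaged 8.67, 7.92, 8.18 and 8.61 at 6, 12, 24 and 48 h in HUH7. It fell by 0.76 ± 0.12 at 12 h against 6 h in 8 of 8 treatments (SE, limma adjusted p = 3.94e-05) and rose by 0.69 ± 0.12 at 48 h against 12 h in 7 of 8 (adjusted p = 3.96e-05). At 6 h its arrays lay within 8.60 to 8.79, but at 48 h they spread from 7.57 to 9.18, with APOB-Hs3 and APOB-Hs2 lowest. With the mean of both HAL probe sets these changes were -0.33 and 0.31, still past the test.

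CPS1 averaged 6.65, 6.24, 6.10 and 6.73 in HUH7, with a fall of 0.41 ± 0.09 at 12 h in 7 of 8 treatments and a rise of 0.48 ± 0.09 at 48 h against 12 h in 8 of 8 (SE, limma adjusted p = 0.00262 and 0.000193). NAGS averaged 5.30, 5.58, 5.58 and 5.81, level between 12 and 24 h. It rose by 0.28 ± 0.08 at 12 h against 6 h in 8 of 8 treatments and by 0.23 ± 0.08 at 48 h against 12 h in 6 of 8 (SE, limma adjusted p = 0.00911 and 0.0203), the second call being lost without the mock arrays (adjusted p = 0.0523). GLUL averaged 11.42, 11.48, 11.59 and 11.84 and rose by 0.42 ± 0.05 at 48 h against 6 h (SE, limma adjusted p = 1.40e-07). ASS1 went the other way, with averages of 9.13, 9.11, 8.90 and 8.83 and a fall of 0.30 ± 0.06 at 48 h against 6 h (SE, limma adjusted p = 0.000177). GLUL and NAGS were higher at 48 h than at 6 h in 8 of 8 treatments, and ASS1 was lower in 8 of 8.

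Counted over the members in HUH7, 5 of 9 were called at 12 h against 6 h (18.5% of all genes), 3 lower (11%) and 2 higher (7.53%). At 48 h against 12 h 6 of 9 were called (34.4% of all genes), and at 48 h against 6 h 3 of 9 (29.3% of all genes). The remaining call at 12 h was OTC, at 0.21 ± 0.07 near the low end of the array (SE, limma adjusted p = 0.0236), and it was lost without the mock arrays (adjusted p = 0.0525). SDS and GLS2 passed at no step, with differences between -0.16 and 0.06.

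**Figure D2:**
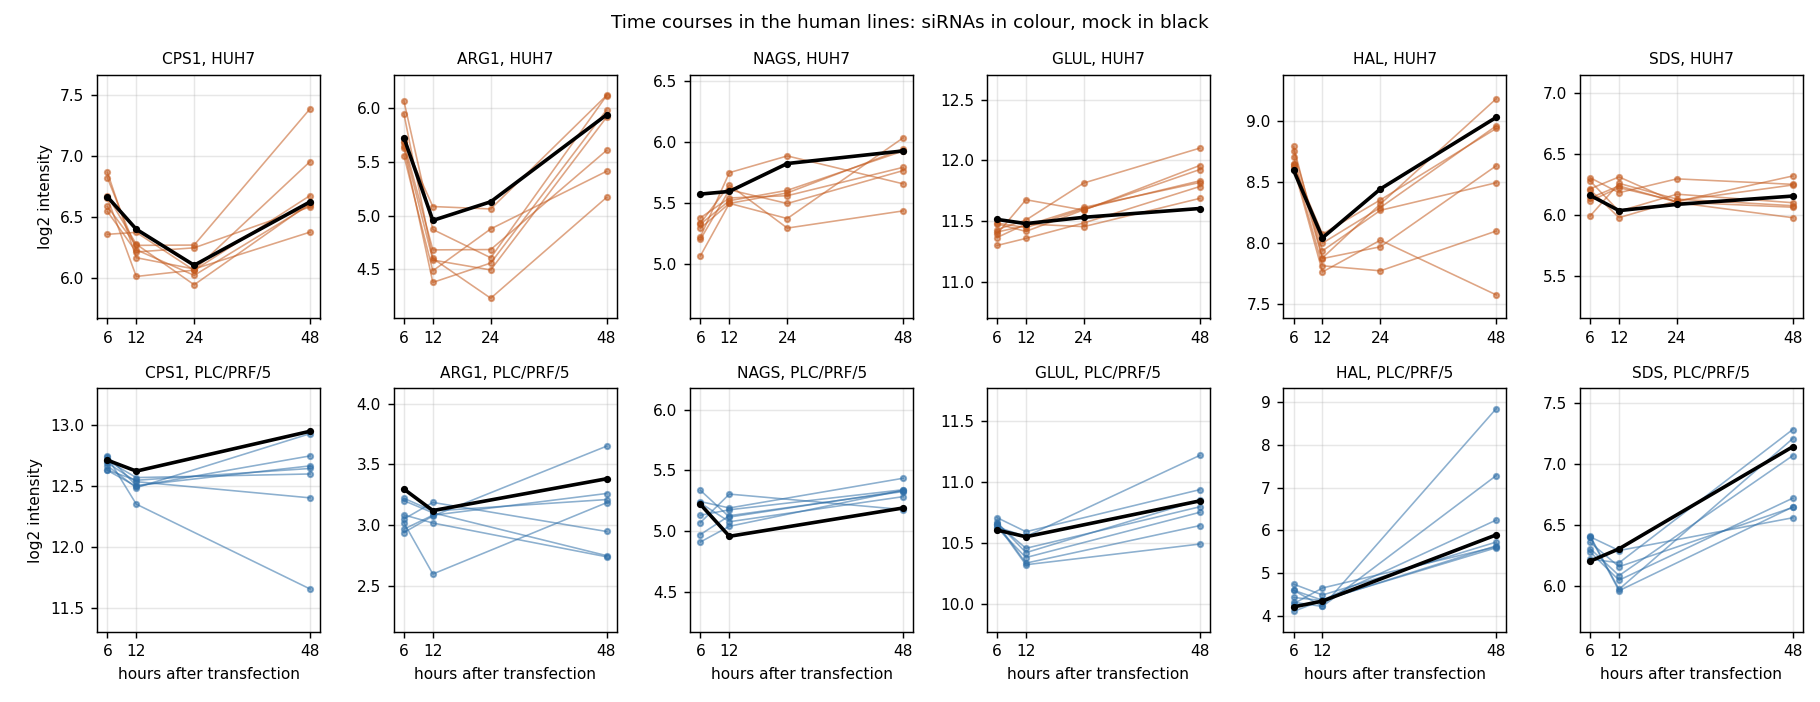
Log2 intensity against hours after transfection for 6 members in HUH7 (top) and PLC/PRF/5 (bottom), with 1 line per treatment, siRNAs in colour and mock in black; the vertical scale differs between panels. ARG1 and HAL are lower at 12 h than at 6 h in every HUH7 treatment, while HAL and SDS are highest at 48 h in every PLC/PRF/5 treatment.

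In PLC/PRF/5 the amino acid breakdown enzymes HAL and SDS rose late, and the averages of the bright CPS1 and ASS1 moved little. HAL lay between 4.11 and 4.75 at 6 h and between 4.22 and 4.66 at 12 h. At 48 h it was between 5.60 and 6.24 on 6 arrays, 7.28 with RAD18 siRNA and 8.84 with APOB-Hs4, so each 48 h array stood above every earlier one.

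HAL rose by 1.94 ± 0.31 at 48 h against 6 h (SE, limma adjusted p = 0.000171), in 8 of 8 treatments. Without the APOB-Hs2 and APOB-Hs4 arrays at 48 h, the rise was 1.65 (adjusted p = 9.24e-06). The dimmer HAL probe set moved by 0.01 over the same interval and ran from 4.10 to 4.75 over all arrays of the line.

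SDS had 6.20 to 6.41 at 6 h, 5.96 to 6.30 at 12 h and 6.56 to 7.28 at 48 h. It rose by 0.59 ± 0.09 at 48 h against 6 h, in 8 of 8 treatments (SE, limma adjusted p = 0.000202). Mock cells had 7.14 at 48 h, among the 4 highest arrays of that time. GLUL rose by 0.37 ± 0.06 at 48 h against 12 h (SE, limma adjusted p = 0.000341).

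At 48 h against 6 h 2 of 9 members were called in PLC/PRF/5, both higher (18.7% of all genes, 12% higher and 6.66% lower), at 12 h against 6 h 0 of 9 (3.33%), and at 48 h against 12 h 3 of 9 (13%). At 12 h against 6 h 1 member, GLUL at -0.20, had an unadjusted p under 0.05 in limma. CPS1 and GLUL were lower at 12 h in 8 of 8 treatments, and ASS1 and SDS in 7 of 8. Without the 48 h arrays the falls of GLUL, CPS1 (-0.18), ASS1 (-0.12) and SDS (-0.20) passed the test (limma adjusted p = 0.00655, 0.00963, 0.0301 and 0.0407). CPS1 averaged 12.69, 12.52 and 12.58 at 6, 12 and 48 h, and ASS1 12.55, 12.43 and 12.37.

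The lines differed in these courses by the test of the difference itself. For the change at 48 h against 6 h, HUH7 minus PLC/PRF/5 was -2.0 ± 0.35 for HAL, -0.62 ± 0.12 for SDS, 0.35 ± 0.10 for NAGS and 0.25 ± 0.08 for GLUL (SE, limma interaction, adjusted p = 0.000179, 0.000399, 0.0149 and 0.0351). The GLUL call was lost with the mean of all its probe sets (0.26, adjusted p = 0.0853). In all 4 of 9 members were called, where 11.6% of all genes were. For CPS1 the difference was 0.20 ± 0.15 and for ARG1 -0.00 ± 0.15, neither past the test. The trough of ARG1 and HAL at 12 h in HUH7 lies outside this interval test, and its difference from PLC/PRF/5 was not tested.

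Genes around the pathway also moved late. In HUH7 at 48 h against 6 h, 8 of 12 regulators rose and 2 fell, where 16.6% of all genes rose and 12.7% fell, with KLF15 at 1.26, CEBPA at 0.78, PPARGC1A at 0.75 and NR3C1 at -0.42. In PLC/PRF/5 5 of 12 rose and 2 fell, where 12% of all genes rose and 6.66% fell, with KLF15 at 0.68, CEBPA at 0.50 and NR3C1 at -0.48. KLF15 rose more in HUH7 by the interaction test (0.58 ± 0.13, SE, limma adjusted p = 0.00199). Of 13 histidine, serine and glycine enzymes 5 rose and 1 fell in HUH7, and 5 rose and 1 fell in PLC/PRF/5. Among them AMDHD1, a later enzyme of histidine breakdown after HAL, rose by 0.50 in HUH7 and by 0.43 in PLC/PRF/5. Of 21 other catabolic enzymes 8 rose in HUH7 and 7 in PLC/PRF/5 and 0 fell in either, with CTH of the transsulfuration pathway up by 0.65 and 0.49. Of 7 partners 3 rose in HUH7, and 2 rose and 1 fell in PLC/PRF/5, with SLC7A2, which imports arginine, up by 0.45 and 0.61.

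Within each line, the genes most like a member over all arrays were named as a description, without a test; the arrays share treatments, times and the line's culture. In HUH7 (32 arrays), ARG1 was most like GLUD1 (Pearson r = 0.848), TMX4 (0.840) and SARDH (0.837). HAL was most like GK (0.843), HNRNPC (0.843) and HPR (0.812), and CPS1 like ACAT2 (0.853), HES6 (0.825) and KBTBD4 (0.817). In PLC/PRF/5 (24 arrays), SDS was most like ACOX2 (0.907), RFX6 (0.876) and ETNPPL (0.875). HAL there was most like CASP9 (0.942), GOLT1A (0.941) and ENOSF1 (0.933), CPS1 like SERP1 (0.901), MEIS2 (0.880) and ZMIZ1 (0.870), and OTC like FUCA2 (0.778), BCL6 (0.771) and FABP1 (0.770). ARG1 in PLC/PRF/5, near the low end of the array, reached 0.754 with HSD17B6, 0.735 with SYN3 and 0.730 with DUSP9.

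In Hepa1-6, Glul rose with time on average, although with APOB-Hs4 it dipped from 10.24 at 6 h to 10.07 at 12 h. Its averages over 4 treatments were 10.31, 10.44, 10.84 and 11.16 at 6, 12, 24 and 48 h. It was higher at 48 h than at 6 h in 4 of 4 treatments, by 0.85 ± 0.07 (SE, limma adjusted p = 2.05e-06). The other Glul probe sets rose alike, by 0.62 and 0.72 between these times.

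Asl had 9.86 with APOB-Hs1, 9.89 with APOB-Hs3, 10.50 with APOB-Hs4 and 10.16 in mock at 48 h, and all 4 values at 6 h lay between 9.75 and 9.84. Nags had 4.83, 4.99, 4.23 and 5.08 at 48 h in the same order, with 6 h values between 4.25 and 4.48. Their fitted changes were 0.31 ± 0.09 and 0.40 ± 0.12 (SE, limma adjusted p = 0.0333 and 0.0354). Both calls were lost without the mock arrays (adjusted p = 0.149 and 0.169). Thus 3 of 8 members were called at 48 h against 6 h (17.2% of all genes, 8.71% higher and 8.45% lower), 0 of 8 at 12 h against 6 h (0.775%) and 1 of 8 at 48 h against 12 h (11.7%). At 12 h against 6 h 1 member, Nags at 0.32, had an unadjusted p under 0.05 in limma. Cps1, Arg1, Otc, Hal and Sds stayed low, between 2.82 and 5.27, at all times.

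**Figure D3:**
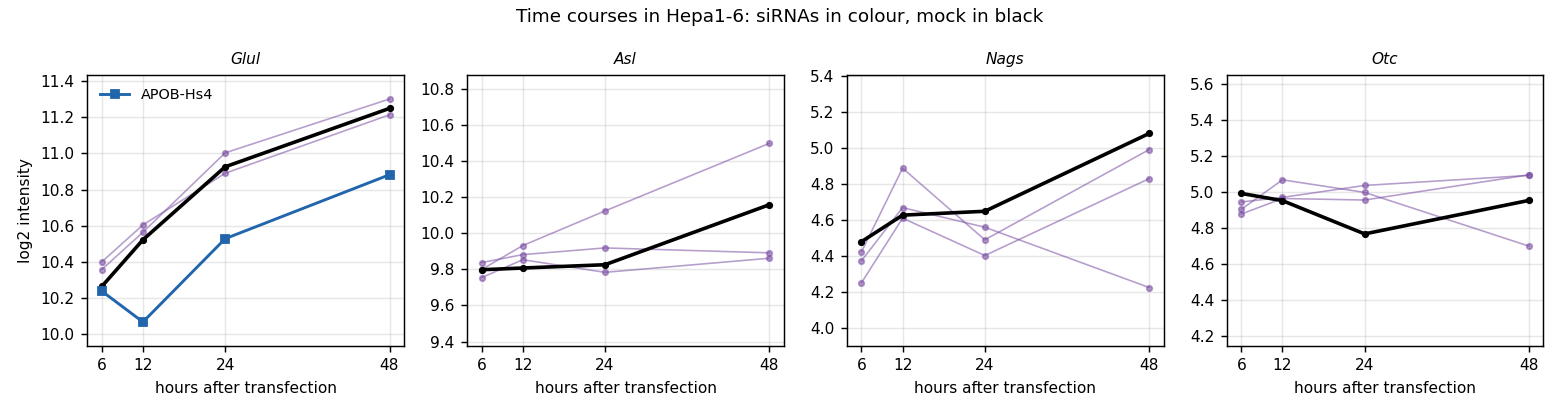
Log2 intensity of 4 members in Hepa1-6 against hours after transfection, with 1 line per treatment, siRNAs in colour and mock in black; in the Glul panel APOB-Hs4 is drawn with squares. Glul is higher at 48 h than at 6 h in all treatments. It is lowest with APOB-Hs4 at each time, and dips at 12 h with that siRNA. Asl at 48 h is higher with APOB-Hs4 (10.50) and in mock (10.16) than with the other siRNAs.

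The fourth question was whether an siRNA moved these enzymes. No member passed the test against mock with any siRNA in any line, over all times together. In HUH7 0 of 63 pairs of member and siRNA were called (1.58% of all pairs of gene and siRNA), in PLC/PRF/5 0 of 63 (0.263%) and in Hepa1-6 0 of 24 (0.847%). At an unadjusted p under 0.05 in limma the counts were 6 of 63, 3 of 63 and 1 of 24, against 11.7%, 7.34% and 11.9% of all pairs. By siRNA, the share of all genes called in HUH7 was 2.54% for APOB-Hs1, 2.4% for APOB-Hs2, 2.22% for APOB-Hs3, 1.64% for APOB-Hs4, 0% for Apob-Mm1, 1.37% for Apob-Mm2 and 0.903% for RAD18. In PLC/PRF/5 it was 0.582%, 0.363%, 0.32%, 0.203%, 0%, 0.139% and 0.235% in the same order, and in Hepa1-6 it was 0.766% for APOB-Hs1, 0.588% for APOB-Hs3 and 1.19% for APOB-Hs4. Treatments in a line share the mock arrays. Estimates ran from -0.53 to 0.18 in HUH7 (SE 0.07 to 0.16), from -0.51 to 0.98 in PLC/PRF/5 (SE 0.10 to 0.50) and from -0.31 to 0.19 in Hepa1-6 (SE 0.07 to 0.12). The mean of all siRNAs against mock called no member in HUH7, PLC/PRF/5 or Hepa1-6 (0.235%, 0.00534% and 0.0365% of all genes), with 1, 0 and 0 members at an unadjusted p under 0.05.

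HAL in HUH7 came nearest among the human pairs. With APOB-Hs3 it had 8.62, 7.76, 8.02 and 7.57 (log2 intensity) at 6, 12, 24 and 48 h, against 8.60, 8.04, 8.44 and 9.03 in mock. The values parted with time, and the fitted difference was -0.53 ± 0.16 (SE, limma adjusted p = 0.0904). Without the 6 h arrays it was -0.72 with an adjusted p of 0.0393. With APOB-Hs2 HAL had 8.65, 7.81, 7.77 and 8.10, and a difference of -0.45 ± 0.16 (adjusted p = 0.175).

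ARG1 in HUH7 with APOB-Hs4 had 5.95, 4.60, 4.23 and 5.17, against 5.72, 4.95, 5.13 and 5.94 in mock. Its difference was -0.45 ± 0.15 (SE, limma adjusted p = 0.128), and -0.67 without the 6 h arrays (adjusted p = 0.0325). At 6 h the treated array was the higher, and from 12 h on the lower.

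Glul in Hepa1-6 with APOB-Hs4 had 10.24, 10.07, 10.53 and 10.88, against 10.26, 10.52, 10.93 and 11.25 in mock. The difference of -0.31 ± 0.07 lay just outside the threshold (SE, limma adjusted p = 0.0519). It passed under 4 of the alternatives tried, among them an intensity trend in the prior variance (adjusted p = 0.00705) and leaving out the 6 h arrays (adjusted p = 0.0133). With APOB-Hs1 Glul had 10.40, 10.60, 10.89 and 11.21, and with APOB-Hs3 10.36, 10.56, 11.00 and 11.30, on either side of mock.

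**Figure D4:**
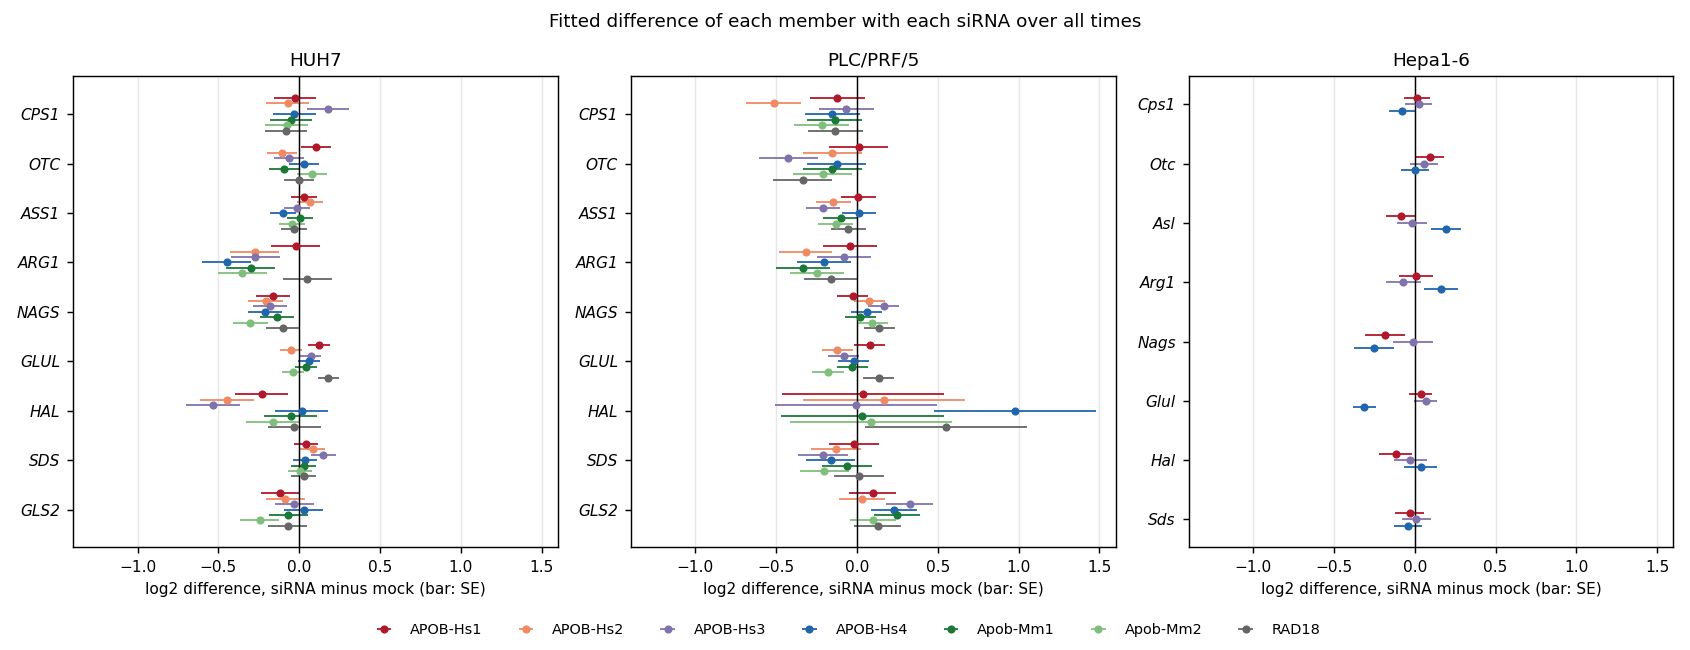
Fitted log2 difference of each member, siRNA minus mock over all times, in HUH7, PLC/PRF/5 and Hepa1-6; points are estimates, bars are 1 SE, and colours are siRNAs. Most points lie within 0.5 of 0, the lowest HUH7 point is HAL with APOB-Hs3 (-0.53), and the widest bars belong to HAL in PLC/PRF/5.

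At 48 h alone there was 1 array per treatment, so differences from mock have no replicate check. The largest was HAL in PLC/PRF/5 with APOB-Hs4, at 8.84 against 5.90 in mock, or 2.95 log2 units, a size passed by 0.0374% of all genes in that pair of arrays. HAL with RAD18 siRNA had 7.28 against the same mock, or 1.39. Past 1 log2 unit were 1.93% of all genes for APOB-Hs4 and 0.502% for RAD18. The APOB-Hs4 array was among the most widely spread of the line, and the other HAL probe set stayed at or below 4.75.

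CPS1 in PLC/PRF/5 with APOB-Hs2 had 11.66 at 48 h, against 12.95 in mock, a difference of -1.30, where 3.01% of all genes passed 1 log2 unit. Over 6, 12 and 48 h it had 12.74, 12.35 and 11.66 with this siRNA, against 12.71, 12.62 and 12.95 in mock. The fitted difference over all times was -0.51 ± 0.17 (SE, limma adjusted p = 0.324). OTC with APOB-Hs3 had 4.45, against 5.43 in mock (-0.99). In HUH7 at 48 h, HAL with APOB-Hs3 had 7.57, against 9.03 in mock (-1.46), where 0.828% of all genes passed 1 log2 unit, and CPS1 with APOB-Hs3 had 7.39, against 6.62 (0.76). In Hepa1-6 Nags with APOB-Hs4 had 4.23, against 5.08 in mock (-0.85).

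By the limma interaction test no member's response to an siRNA passed as differing between HUH7 and PLC/PRF/5, with 0 of 9 called for each siRNA and 0 at an unadjusted p under 0.05. Over all genes 0.00382% of pairs were called in that test, from 0 for 3 siRNAs through 0.00534% for APOB-Hs1, APOB-Hs4 and Apob-Mm2 to 0.0107% for RAD18.

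Some genes around the pathway did change with an siRNA. NR3C1, the glucocorticoid receptor, which drives several urea cycle genes, fell with APOB-Hs3 by 0.78 ± 0.13 in HUH7, by 0.87 ± 0.17 in PLC/PRF/5 and by 0.63 ± 0.11 (Nr3c1) in Hepa1-6 (SE, limma adjusted p = 0.00109, 0.0303 and 0.0188). It also fell with RAD18 siRNA in HUH7, by 0.74 ± 0.13 (adjusted p = 0.00209). These were among 1 of 12 regulators with APOB-Hs3 in either human line, 1 of 11 in Hepa1-6 and 2 of 12 with RAD18 siRNA in HUH7. Over all genes 2.22% were called with APOB-Hs3 in HUH7, 0.32% in PLC/PRF/5 and 0.588% in Hepa1-6. With RAD18 siRNA in HUH7 the share was 0.903%.

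With APOB-Hs2 in HUH7, 3 of 12 regulators fell, namely CEBPB (-0.34), CEBPA (-0.33) and ATF4 (-0.22), and 3 of 14 glutamine and glutamate genes fell, namely ASNS (-0.48), SLC38A2 (-0.30) and PYCR1 (-0.23). Over all genes 225 of 18721 were called lower with this siRNA in HUH7, and 225 higher. SLC7A2 was lower in HUH7 with APOB-Hs1 (-0.37) and APOB-Hs2 (-0.28), which share their mock arrays. AMT fell by 0.72 with APOB-Hs3 in HUH7. In Hepa1-6 the mitochondrial aspartate carrier Slc25a13 fell by 0.54 with APOB-Hs4, the desuccinylase Sirt5 fell by 0.62 with APOB-Hs1, and Cth rose by 0.49 with APOB-Hs4.

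In liver each siRNA was set against the mean of the other 2, since no untreated liver was analysed here. No member was called, with 0 of 24 pairs (0.185% of all pairs; 0.328% of genes for APOB-Hs1, 0.0182% for APOB-Hs3 and 0.21% for APOB-Hs4) and 6 of 24 at an unadjusted p under 0.05, against 10.5% of all pairs. Every liver enters all 3 contrasts, so the pairs of a gene are not independent. Of the 6, APOB-Hs1 gave 4 and the other siRNAs 1 each. Over the 9 livers the members spanned from 0.23 log2 units for Cps1 to 0.99 for Nags. Cps1 averaged 13.24 ± 0.10 in the APOB-Hs1 livers, 13.33 ± 0.06 in those given APOB-Hs3 and 13.27 ± 0.06 in those given APOB-Hs4 (SD, n = 3 livers each).

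The APOB-Hs1 livers had lower values of most members. Hal had 11.06, 11.51 and 11.00 with APOB-Hs1, against 11.67, 11.55 and 11.65 with APOB-Hs3 and 11.31, 11.49 and 11.71 with APOB-Hs4. The difference was -0.38 ± 0.12 (SE, limma adjusted p = 0.216), and liver 2 of APOB-Hs1 lay among the others. Nags had 8.56, 8.82 and 8.28 with APOB-Hs1, against 8.82, 9.00 and 8.73 with APOB-Hs3 and 9.27, 8.77 and 9.04 with APOB-Hs4, a difference of -0.38 ± 0.13 (SE, limma adjusted p = 0.247).

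Sds had 11.02, 10.97 and 10.72 with APOB-Hs1, against 11.15, 11.33 and 11.00 with APOB-Hs3 and 11.15, 11.22 and 11.07 with APOB-Hs4 (-0.25, adjusted p = 0.277). Arg1 had 13.05, 13.16 and 12.92 with APOB-Hs1, against 13.26, 13.26 and 13.17 with APOB-Hs3 and 13.23, 13.21 and 13.31 with APOB-Hs4 (-0.20, adjusted p = 0.287). The highest APOB-Hs1 liver (13.162) lay barely below the lowest of the rest (13.165). Estimates were negative for 7 of 8 members, with Glul at 0.13, and the median over all 8 was -0.21, against 0.0089 over all genes. The share of all genes with a negative estimate was not counted. In this contrast 4 of 8 members had an unadjusted p under 0.05 in limma, where 2953 of 21931 genes did. Red cell markers had a median of 0.62 in the same contrast, with 0 of 2 called and 2 of 2 at an unadjusted p under 0.05; their part was not tested. Around the pathway 1 of 7 partners, Slc7a2, was lower with APOB-Hs1 (-0.59, adjusted p = 0.0213), and Mat1a was lower with APOB-Hs4 (-0.70, adjusted p = 0.0121).

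**Figure D5:**
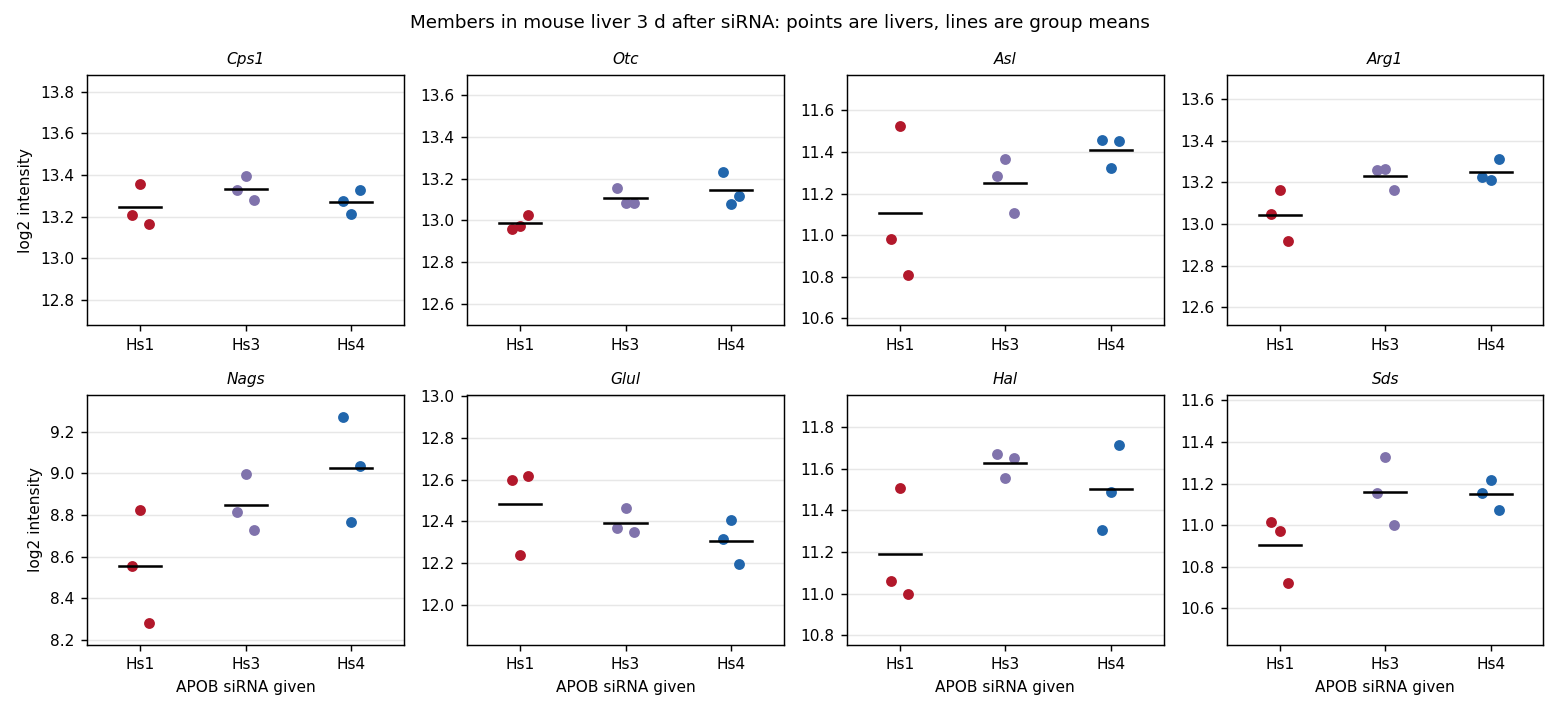
Log2 intensity of the 8 measured members in mouse liver, with 1 point per liver and a line at each group's mean; every panel spans 1.2 log2 units. The APOB-Hs1 livers have the lowest group mean for every member except Glul, and their points overlap other groups in most panels.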

How the data were processed

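The deposited values were linear intensities per probe set. The submitters' processing notes name RMA, a multi-array summary method, without a version. No genome build for the probes is named in the labels. The log2 of these deposited intensities was taken. Array medians ran from 31.75 to 35.39 (human) and from 19.73 to 22.55 (mouse), and the number of arrays limits the precision. Human symbols were updated through RefSeq, where 21630 of 25919 named probe sets were current, 2085 were matched by accession and 2143 by synonym; 910 unlisted probe sets were named by accession. Mouse symbols (30342 of 43681 probe sets) were kept. A gene's probe set was the one brightest over all arrays of its design.

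Log2 intensity was modelled using limma 3.58.1 (R 4.3.3), on treatment and time as factors within a cell line and on siRNA within liver. The fit of HUH7 minus PLC/PRF/5 took line and time, over mock arrays. That of Hepa1-6 minus liver took system and siRNA, without time. The interaction fit took line by treatment and line by time. P-values were Benjamini-Hochberg adjusted over all genes, two-sided, at 0.05. On simulated data, 99.5%, 96% and 99% of 200 genes changed by 1 log2 unit were recovered for APOB-Hs1 in HUH7 (18721 genes), PLC/PRF/5 (18721 genes) and Hepa1-6 (21931 genes). False calls made up 7.01%, 6.34% and 6.16% of the genes called there, in the same order. Recovery of smaller differences, or of differences that grow with time, was not tested. On the real arrays APOB with Apob-Mm1 missed the threshold in both human lines at differences beyond 1 log2 unit. All members are named, up to 4 called genes per wider list, and 3 genes most like each member spanning over 1 log2 unit in a human line; further list genes were chosen after their values were seen. Members and lists were chosen with earlier results of these data known. The contrasts with 12 h were added after seeing the data. Alternatives were quantile normalization, the mean of a gene's probe sets, leaving out dim genes, an intensity trend, leaving out times, mock arrays, livers or widely spread arrays, the brightest probe set within a system, all 8 treatments for the human lines, and the 48 h arrays alone for Hepa1-6 against liver.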

Additional observations from a re-analysis of the deposited data

Results flagged for a closer look

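The change at 48 h against 6 h differed between the human lines for 4 members, by limma's interaction test. HUH7 minus PLC/PRF/5 was -2.0 for HAL, -0.62 for SDS, 0.35 for NAGS and 0.25 for GLUL, on the log2 scale. The GLUL call was lost with the mean of all its probe sets (adjusted p = 0.0853). HAL changed by -0.06 in HUH7 and by 1.94 in PLC/PRF/5, and SDS by -0.03 and 0.59. In HUH7 HAL was higher at 48 h in 4 treatments and lower in 4, with changes from -1.05 to 0.43. In PLC/PRF/5 it was higher in 8 of 8, by 0.98 to 4.52. The dimmer HAL probe set moved by 0.03 in HUH7 and 0.01 in PLC/PRF/5. Over the alternatives tried the HAL difference between the lines ran from -2.04 to -0.99. NAGS changed by 0.51 in HUH7 and by 0.16 in PLC/PRF/5, and GLUL by 0.42 and 0.17.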

How the results depend on the processing

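Of the recomputed values of called members, 287 kept direction and call, 12 kept direction and lost the call, and 0 reversed. Counts of members called moved as follows, with the cause not tested unless fewer genes or arrays entered. With genes dimmer than the median of their system left out, they were 4 (of 8) for HUH7 minus PLC/PRF/5, 2 (of 4) for the interaction over time, 1 (of 5) for HUH7 at 12 h against 6 h, 3 (of 6) at 48 h against 12 h, 1 (of 3) for PLC/PRF/5 at 48 h against 12 h, and 1 (of 0) for each siRNA in HUH7 (HAL with APOB-Hs3), each siRNA in Hepa1-6 (Glul with APOB-Hs4) and PLC/PRF/5 at 12 h against 6 h (GLUL). Without 6 h, HUH7 siRNA calls were 2 and Hepa1-6 siRNA calls 1; an intensity trend or quantile normalization also gave 1 in Hepa1-6. Hepa1-6 at 48 h against 6 h kept 1 of 3 without 12 h, 24 h or mock. PLC/PRF/5 at 12 h against 6 h gave 1 under quantile normalization or without the widely spread arrays and 4 without 48 h, and at 48 h against 6 h 4 with an intensity trend or without the widely spread arrays. ASS1 in HUH7 at 48 h against 12 h lost its call with the mean of its probe sets (-0.07, adjusted p = 0.191). In liver the replicate block gave 0 members called, as did leaving out each liver in turn (0 to 0). Same-numbered livers correlated from -0.144 to 0.188. Differently numbered livers were not set beside them, so these values cannot settle whether the numbers mark pairs. With the mean of all probe sets, the HUH7 minus PLC/PRF/5 difference was 1.72 for HAL and -1.71 for ASS1. Dim members (OTC in HUH7, ARG1 in PLC/PRF/5, Cps1 and Arg1 in Hepa1-6) lie near the low end of the arrays, which limits what a change there can show. HAL in PLC/PRF/5 at 6 and 12 h (4.11 to 4.75) and GLS2 in both human lines (averages 4.31 and 4.18) also lay below the human array median of 5.06.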

Other observations

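Pericentral and WNT target genes were measured beside GLUL. Over all genes, 8.71% rose and 8.45% fell at 48 h against 6 h in Hepa1-6. In HUH7 16.6% rose and 12.7% fell, and in PLC/PRF/5 12% rose and 6.66% fell. In Hepa1-6 at 48 h against 6 h, when Glul rose, 2 of 13 of these genes rose, Tbx3 (0.84) and Nkd1 (0.79), 1 fell, Sp5 (-0.23), and the remaining 10 did not pass the test. In HUH7 over the same interval 5 of 13 rose, among them TBX3 (0.65), ZNRF3 (0.48), RNF43 (0.45) and LGR5 (0.40), and none fell. In PLC/PRF/5 2 of 13 rose, RNF43 (0.43) and SP5 (0.41). Against liver, Hepa1-6 had lower Cyp2e1 (-10.02) and Cyp1a2 (-9.12), and higher Sp5 (4.48), Axin2 (3.77) and Nkd1 (3.43).

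Of 13 glutamine and glutamate genes 5 rose and 0 fell in Hepa1-6 at 48 h against 6 h, including Pycr1 (1.55) and Aldh18a1 (0.91) of proline synthesis. Of 13 histidine, serine and glycine enzymes 4 rose, including Psph (0.86) and Psat1 (0.38) of serine synthesis, and 1 fell, Gldc of glycine breakdown (-1.10). Phgdh, also of serine synthesis, did not pass and ran from 12.59 to 12.72 over the 16 arrays. Of the breakdown list 6 of 21 rose there, including Fah (0.76), Aldh4a1 (0.74) and Cth (0.72).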
